A study of Rattus norvegicus with 9 samples.

Results

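Respiratory complex I is represented here by 33 nuclear genes, named from a list of 35 NADH dehydrogenase subunit genes, out of 14217 genes measured. They include Ndufa4, which is now assigned to cytochrome c oxidase. Of the 7 subunit genes in mitochondrial DNA 0 were measured. A gene counted as measured if a probe set of the array was assigned to it alone, and where several were, the brightest over the 9 arrays was taken. Ndufa10 and Ndufs5, the other listed genes, had only probe sets assigned to more than 1 gene and are given no value. The samples were pancreatic islets of Wistar rats, freed with collagenase and hybridized to Affymetrix Rat Genome 230 2.0 arrays, 1 array per sample. A lean group of 4 samples came from rats on standard chow, and an obese group of 5 from rats on a high-caloric cafeteria diet, an energy-dense choice of palatable foods, for 30 days. The labels number no replicates, and the replicate numbers used here follow the order of the deposited samples within each group. The question of the comparison was which islet transcripts differ with the diet. Sex, age, batches and any pooling of islets are not stated in the labels. A p-value here therefore reflects the scatter among these 9 samples, part of which may be technical.

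Complex I is the entry of electrons into the respiratory chain of mitochondria. It oxidizes NADH, passes the electrons along iron-sulfur clusters to ubiquinone and pumps protons across the inner membrane. The enzyme has the shape of an L: the N module at the tip of the matrix arm binds NADH, the Q module at its base hands electrons to ubiquinone, and a proximal and a distal part of the membrane arm carry the proton channels. A few core subunits do the chemistry, some of them encoded in mitochondrial DNA, and many accessory subunits surround them. In beta cells, oxidation of glucose-derived NADH by this chain raises ATP, which closes potassium channels and starts insulin secretion.

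Promoter sequences show what many of these genes have in common outside the arrays. Of the 33 genes, 31 had a window from 250 bases before to 50 bases after the transcription start in RefSeq (build GRCr8), among 21842 windows of protein-coding genes. Words recognised by factors known for respiratory genes were searched on both strands. The YY1 word AAGATGGC was in 8 of the 31 member windows (25.8%) and in 3.68% of all windows. The NRF1 word GCGCANGCG was in 8 (25.8%, against 7.62%), the GABP word CCGGAAG in 7 (22.6%, against 10.7%), the CREB word TGACG in 16 (51.6%, against 23.5%) and the estrogen-related receptor word AAGGTCA in 3 (9.68%, against 3.78%). No site of one factor overlapped a site of another in the member windows. At least 1 of the 5 words was in 25 member windows (80.6%), against 38.7% of all windows. The member windows were also richer in the letters CG, which the NRF1, GABP and CREB words contain. The median CG count was 20, against 11 for all windows. The part of this in the shares above was not tested. The 21842 windows came from 18999 genes, so some genes had several, whereas each member had 1. Such a match describes letters and does not show that a factor binds.

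The YY1 words are shown because their place was alike: all 8 lay on the gene's own strand, starting 5 to 27 bases from the transcription start, counted from 1 at the start itself. Of the 818 YY1 words in all windows, 325 (39.7%) lay on that strand after the start. The word contains ATG, the letters of a translation start codon, which also lies on the gene's own strand after the transcription start. Whether these ATGs are the start codons of the 8 proteins was not checked. Each line gives 30 bases of the gene's strand, 5′ to 3′, with the YY1 word in capitals.
Ndufa2, chr18:28631843-28631872, minus strand: ctcctttgctagcaAAGATGGCggccgcaa
Ndufa3, chr1:74515527-74515556, minus strand: tcttgtccaagaccAAGATGGCtgctagta
Ndufa6, chr7:115750287-115750316, minus strand: ggggcttccttagcAAGATGGCggccgcgg
Ndufa9, chr4:161374145-161374174, minus strand: aggcattgtgggagAAGATGGCggccgccg
Ndufb8, chr1:253362900-253362929, minus strand: cgtcggagaaggtgAAGATGGCggcgtccc
Ndufs4, chr2:47794895-47794924, minus strand: cgtttgcccacaggAAGATGGCggcggtct
Ndufs6, chr1:31797409-31797438, plus strand: taagggtcgtcggcAAGATGGCggcggcgc
Ndufs7, chr7:10110479-10110508, minus strand: tgaaggccgaggccAAGATGGCggcgctgg

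A second pair of stretches is shown for the other factors, again with the words in capitals. Ndufa11 carries NRF1 words that overlap each other, starting at -97 to -90 from the start, and Ndufs1, which encodes the largest core subunit, carries a GABP word on the opposite strand at -199.
Ndufa11, chr9:1637487-1637562, plus strand: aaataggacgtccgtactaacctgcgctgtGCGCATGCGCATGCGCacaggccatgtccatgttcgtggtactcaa
Ndufs1, chr9:72073768-72073834, minus strand: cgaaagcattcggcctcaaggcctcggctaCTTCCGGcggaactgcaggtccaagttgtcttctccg

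Genes that shared a word had diet differences in both directions. Of the 8 genes with the YY1 word, 4 had a higher and 4 a lower mean under the cafeteria diet, with differences from -0.16 to 0.18 on the log2 scale. The 8 genes with the NRF1 word also divided into 4 and 4, and the 7 with the GABP word into 4 higher and 3 lower. With the CREB word 10 were higher and 6 lower, with the estrogen-related receptor word 2 were higher and 1 lower, and of the 6 genes with none of the words 5 were higher and 1 lower. Within 1000 bases of the start, 9 member genes (29.0%) had a neighbouring gene transcribed in the opposite direction, head to head, against 7.23% of all protein-coding genes with a window. Of these 9 members 7 had a higher and 2 a lower cafeteria mean. Examples are Ndufs1 beside Eef1b2, a translation factor gene, Ndufa7 beside the ribosomal protein gene Rps28, and Ndufb5 beside the mitochondrial ribosomal protein gene Mrpl47.

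In the islets no complex I gene passed the test for a difference between the diets. By limma with Benjamini-Hochberg adjustment over all probe sets, 0 of the 33 members reached an adjusted p of 0.05, against 0% of the 31042 probe sets tested. At an adjusted p of 0.10 there were also 0, and at an unadjusted p of 0.05 there was 1 member, Ndufa9, where 6.7% of all genes stood. The smallest adjusted p of a member was 0.844. The mean was higher under the cafeteria diet in 20 members (60.6%) and lower in 13, where 50.8% of all genes were higher. The median difference of the members, cafeteria diet minus lean, was 0.0269 log2, against 0.00251 for all genes. Without cafeteria replicate 3 it was 0.0838, and without cafeteria replicate 1 it was 0.00806.

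The arrays limited how small a difference could be seen, but they bounded its size. The standard error (SE) of a member's difference lay between 0.0686 and 0.164 log2, with a median of 0.0946 against 0.098 for all genes. The 95% intervals of the 33 members ran no lower than -0.476 and no higher than 0.441, which is 1.39-fold down and 1.36-fold up. Each of these intervals, taken alone, therefore left out a change of 1.5-fold in either direction; the same held for 90.5% of all genes. RMA, the method named for these values, compresses the differences of dim probe sets. The 9-array means of the members ran from 6.03 to 11.11, above the array medians of 5.28 to 5.32, and exceeded 8.5 in 30 members.

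**Figure D1:**
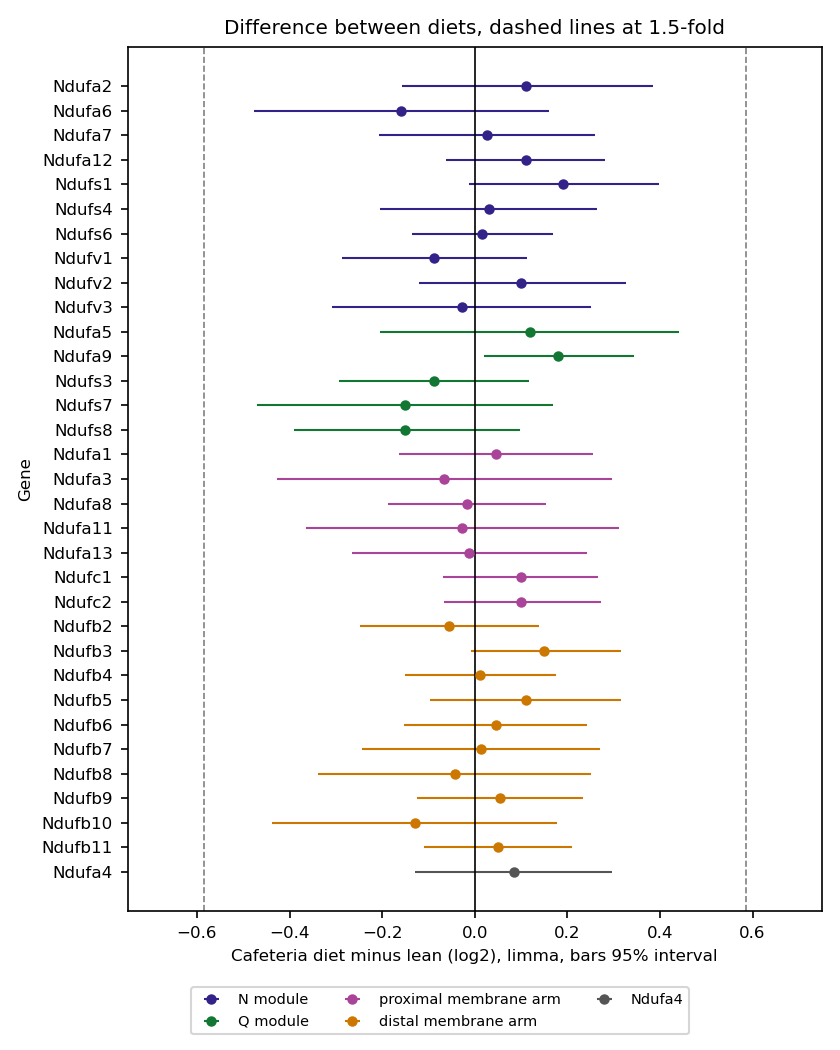
Difference between the diets for each of the 33 genes, cafeteria diet minus lean on the log2 scale (horizontal axis), with 95% intervals from limma (bars, n = 4 and 5) and colours for the parts of the enzyme. All intervals end between -0.476 and 0.441, inside the dashed lines at 1.5-fold, and only that of Ndufa9 does not cross 0.

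The samples held markers of islets and of cells around them. The islet hormone genes Ins1, Ins2 and Iapp had lean means of 13.43, 14.19 and 13.92 log2. Of 19 measured markers of acinar cells, the enzyme-secreting cells of the exocrine pancreas, 18 had a higher cafeteria mean, but their mean deviation from the 9-array mean ran from -0.72 to 0.148 in lean and from -0.978 to 0.714 in cafeteria samples. Of 18 immune cell markers 17 had a lower cafeteria mean, with ranges from -0.0504 to 1.07 in lean and from -0.353 to -0.0592 in cafeteria samples. The 1.07 was that of lean replicate 3, and the next highest lean value was 0.116. Lower cafeteria means were also found in 7 of 10 ductal, 9 of 11 endothelial and 6 of 10 stellate cell markers. The mean deviation of the ductal markers was highest in lean replicate 1, at 0.752, with 0.163 in lean replicate 2. None of these markers passed the test either. With the mean deviation of the acinar markers as a covariate, 22 complex I members had a higher mean and the median difference was 0.0334. At an unadjusted p of 0.05 by limma there were then 0 members. The difference of Ndufa9 was not smaller with this covariate, at 0.189 against 0.182 without it. The intervals of the members reached further, from -0.532 to 0.536 with the covariate and from -0.476 to 0.441 without it. The part of the immune, ductal, endothelial and stellate cell markers in the complex I values was not tested. In islet tissue, fewer cells of a type and less RNA per cell cannot be told apart.

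In the N module, which takes electrons from NADH, 7 of 10 members had a higher and 3 a lower mean, with a median difference of 0.0283, or 0.0859 without cafeteria replicate 3. Sources differ on the module of Ndufa6, Ndufa7, Ndufa9 and Ndufa11. The counts and medians by module, here and below, therefore depend on the grouping used. Ndufv1 binds NADH and the flavin that accepts its electrons. Its log2 expression was 9.22, 9.20, 9.12 and 9.25 in lean replicates 1 to 4 and 9.26, 9.15, 8.82, 9.16 and 9.15 in cafeteria replicates 1 to 5. All cafeteria samples but replicate 3 lay among or just beside the lean ones. The difference was -0.0873 (SE 0.0904; limma adjusted p = 0.887), and without cafeteria replicate 3 it was -0.0161.

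Ndufv2 carries an iron-sulfur cluster next to the flavin. It measured 9.70, 9.62, 9.30 and 9.62 in lean and 9.77, 9.64, 9.45, 9.67 and 9.78 in cafeteria samples. Lean replicate 3 and cafeteria replicate 3 were the lowest of their groups, and the groups overlapped. The difference was 0.10 (SE 0.101; limma adjusted p = 0.881), 0.0164 without lean replicate 3 and 0.155 without cafeteria replicate 3.

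Ndufs1 holds the chain of iron-sulfur clusters that leads away from the flavin. It measured 9.28, 9.36, 9.15 and 9.03 in lean and 9.33, 9.30, 9.62, 9.36 and 9.38 in cafeteria samples. Here cafeteria replicate 3 was the highest of all arrays, and lean replicate 2 was level with the middle of the cafeteria group. Ndufs1 had the largest difference of the 33, 0.19 (SE 0.0925; 95% interval -0.0126 to 0.397; limma adjusted p = 0.844), which was 0.138 without cafeteria replicate 3 and 0.132 without lean replicate 4.

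Ndufa12, an accessory subunit related to the assembly factor Ndufaf2, measured 9.63, 9.55, 9.47 and 9.36 in lean and 9.61, 9.50, 9.65, 9.58 and 9.73 in cafeteria samples. The groups overlapped, with lean replicates 3 and 4 below all cafeteria samples. The difference was 0.11 (SE 0.0775; limma adjusted p = 0.849), and 0.0634 without lean replicate 4. The remaining accessory genes of this module were Ndufa2, a thioredoxin-like protein (0.11, SE 0.123), Ndufa6, which anchors an acyl carrier protein (-0.16, SE 0.144), and Ndufa7 (0.0269, SE 0.105). Ndufs4, loss of which gives a Leigh-like brain disease in mice, differed by 0.0298 (SE 0.106), the zinc-binding Ndufs6 by 0.0166 (SE 0.0686) and Ndufv3 by -0.0277 (SE 0.127). Ndufa2 differed by 0.215 without cafeteria replicate 3 and by 0.0464 without lean replicate 1. Without that cafeteria array its groups did not overlap, but the share of all genes was not computed for that setting. Leaving out that cafeteria array turned the sign for Ndufs4 (-0.0222) and Ndufv3 (0.0704) and left Ndufa6 at -0.0681. The sign also turned for Ndufa7 without cafeteria replicate 1 (-0.043) and for Ndufs6 without lean replicate 3 (-0.0121).

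In the Q module, where ubiquinone is reduced, 2 of 5 members had a higher and 3 a lower mean, with a median of -0.0879, or -0.018 without cafeteria replicate 3. Ndufa9 sits at the joint between the matrix arm and the membrane arm and binds a nucleotide. It measured 9.0, 8.89, 9.0 and 9.03 in lean and 9.10, 9.08, 9.33, 9.12 and 9.19 in cafeteria samples. Every cafeteria sample lay above every lean sample. This was the only member whose groups did not overlap, where 2.17% of all genes had such groups and 1.33% had them with the cafeteria diet higher. The difference was 0.18 (SE 0.0728; 95% interval 0.021 to 0.343; unadjusted p = 0.0303 and adjusted p = 0.844 by limma), so it did not pass the test, and it was 0.141 without cafeteria replicate 3.

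The 3 measured core genes of the Q module had lower means. Ndufs7 carries the last iron-sulfur cluster before ubiquinone. It measured 8.97, 9.27, 9.10 and 9.19 in lean and 9.27, 9.14, 8.49, 9.08 and 8.93 in cafeteria samples. The value of cafeteria replicate 3 lay far below the others, whereas replicate 1 was level with the highest lean sample. The difference was -0.15 (SE 0.145; limma adjusted p = 0.881), and without cafeteria replicate 3 it was -0.0265.

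Ndufs8, which carries a pair of iron-sulfur clusters, measured 8.62, 8.84, 8.74 and 8.64 in lean and 8.83, 8.46, 8.26, 8.67 and 8.58 in cafeteria samples. Cafeteria replicates 2, 3 and 5 were below all lean samples. The difference was -0.15 (SE 0.11; limma adjusted p = 0.856), and without cafeteria replicate 3 it was -0.0724. Ndufs3, a core subunit without a cofactor, measured 8.81, 9.02, 9.02 and 8.92 in lean and 8.94, 8.93, 8.58, 8.91 and 8.91 in cafeteria samples. The other 4 cafeteria samples were almost level with each other, inside the lean range, and replicate 3 stood alone below it. The difference was -0.0879 (SE 0.0925; limma adjusted p = 0.888), and without cafeteria replicate 3 it was -0.018. The accessory gene Ndufa5 differed by 0.12 (SE 0.146), by 0.231 without cafeteria replicate 3 and by 0.0252 without lean replicate 1. Over the 6 measured core genes of both modules the median difference was -0.0876, and -0.0171 without cafeteria replicate 3.

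**Figure D2:**
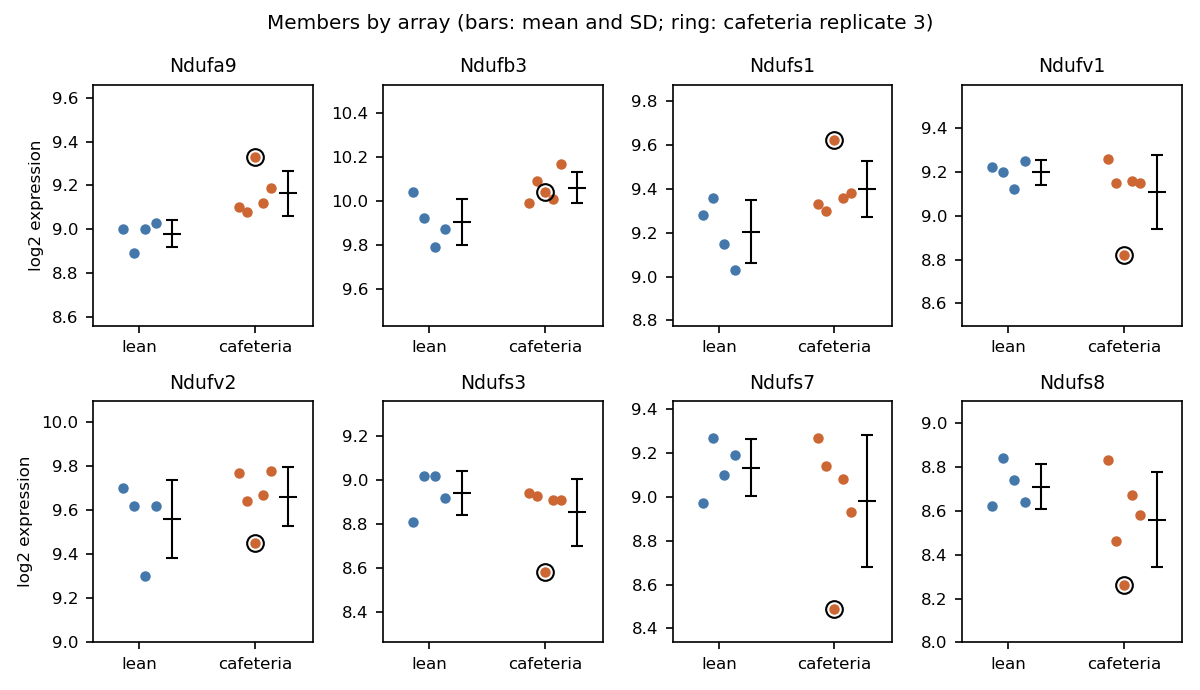
Log2 expression (vertical axes, all spanning the same range of log2 units) of 8 genes in the lean and cafeteria samples, each point 1 array, with the mean and SD beside each group and a ring around cafeteria replicate 3. The ringed array is the highest for Ndufa9 (9.33) and Ndufs1 (9.62) and the lowest of all for Ndufv1 (8.82), Ndufs3 (8.58), Ndufs7 (8.49) and Ndufs8 (8.26).

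In the proximal membrane arm 3 of the 7 measured members had a higher and 4 a lower mean, with a median of -0.0117 that turned to 0.0961 without cafeteria replicate 3. Ndufc2 measured 9.29, 9.31, 9.16 and 9.19 in lean and 9.40, 9.39, 9.15, 9.42 and 9.34 in cafeteria samples. Without replicate 3, the cafeteria samples of Ndufc2 lay above all lean ones, but the share of such genes was not computed for that setting. Its difference was 0.10 (SE 0.0765; limma adjusted p = 0.856), and 0.151 without that replicate. Ndufa11, a small membrane subunit, measured 8.87, 9.30, 9.04 and 9.18 in lean and 9.31, 9.17, 8.54, 9.19 and 9.15 in cafeteria samples. Cafeteria replicate 3 stood apart at the low end, lean replicate 1 was the next lowest, and the difference of -0.0271 (SE 0.153) became 0.107 without the former and -0.102 without the latter.

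Ndufa13, also described as a regulator of cell death, measured 9.66, 9.77, 9.79 and 9.77 in lean and 10.00, 9.78, 9.35, 9.83 and 9.71 in cafeteria samples. Its lean samples were close together but for replicate 1, and its cafeteria samples spread to both sides of them. The difference was -0.0117 (SE 0.115), turning to 0.0838 without cafeteria replicate 3. Ndufa8, a cysteine-rich subunit facing the space between the membranes, measured 9.30, 9.42, 9.40 and 9.25 in lean and 9.38, 9.36, 9.13, 9.40 and 9.36 in cafeteria samples. Again replicate 3 was the lowest, and the difference of -0.0173 (SE 0.0771) was 0.0309 without it. Ndufa1, a short membrane subunit, differed by 0.0462 (SE 0.0946), Ndufa3 by -0.0661 (SE 0.164) and Ndufc1 by 0.099 (SE 0.0756). The sign turned for Ndufa1 without lean replicate 1 (-0.00538) and for Ndufa3 without cafeteria replicate 3 (0.0548), and Ndufa3 was at -0.186 without lean replicate 1. For Ndufc1 the value was 0.05 without lean replicate 1.

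In the distal membrane arm 7 of 10 members had a higher and 3 a lower mean, with a median of 0.0292, or 0.0658 without cafeteria replicate 3. Ndufb3 measured 10.04, 9.92, 9.79 and 9.87 in lean and 9.99, 10.09, 10.04, 10.01 and 10.17 in cafeteria samples. Lean replicate 1 alone overlapped the cafeteria group, and without it the difference of 0.15 (SE 0.0732; limma adjusted p = 0.844) was 0.199. Ndufb7, a cysteine-rich subunit like Ndufa8, measured 9.42, 9.50, 9.26 and 9.42 in lean and 9.47, 9.59, 9.01, 9.48 and 9.52 in cafeteria samples. The low value was once more that of cafeteria replicate 3, and the difference of 0.0135 (SE 0.117) was 0.115 without it and -0.0329 without lean replicate 3. Ndufb4 measured 10.57, 10.75, 10.68 and 10.64 in lean and 10.76, 10.73, 10.51, 10.69 and 10.69 in cafeteria samples, with a difference of 0.0123 (SE 0.0739). That value was 0.054 without cafeteria replicate 3 and -0.0171 without lean replicate 1.

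The other genes of the distal arm covered differences from -0.13 to 0.11. Ndufb10 differed by -0.13 (SE 0.139), Ndufb2 by -0.055 (SE 0.0873) and Ndufb8 by -0.0429 (SE 0.133). On the other side of 0 were Ndufb5 (0.11, SE 0.0935), Ndufb9 (0.0551, SE 0.0809), Ndufb11 (0.0493, SE 0.0722) and Ndufb6 (0.0449, SE 0.0892). Without cafeteria replicate 3 the difference was -0.00929 for Ndufb10, and it turned to 0.00446 for Ndufb2 and 0.0585 for Ndufb8. For Ndufb9 it turned to -0.0121 without lean replicate 4. Ndufa4, once counted as a complex I subunit and now assigned to cytochrome c oxidase, measured 10.52, 10.85, 10.83 and 10.59 in lean and 10.94, 10.79, 10.60, 10.85 and 10.74 in cafeteria samples. The groups overlapped, with a difference of 0.0839 (SE 0.0965; limma adjusted p = 0.898) that was 0.0242 without lean replicate 1.

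The arrays differed from each other across the members more than the diets did. Cafeteria replicate 3 was the lowest of the 9 arrays in 20 members (60.6%), whereas it was the lowest in 18.8% of all genes. This count was made after the values were seen. The lowest values in that array covered 5 of 10 genes of the N module, 4 of 5 of the Q module, 5 of 7 of the proximal and 6 of 10 of the distal membrane arm. Ndufa9, Ndufs1 and Ndufs4 were the 3 members highest in it, against 19.8% of all genes, so the array was extreme for many genes in both directions and for complex I mostly in the low one. At the other end, cafeteria replicate 1 was the highest array in 16 members (48.5%, against 10.2% of all genes) and stood above the 9-array mean in 31 of 33.

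The mean deviation of the members from their 9-array means puts the same data into 1 value per array. It was -0.0588, 0.0787, -0.0334 and -0.0306 log2 in lean replicates 1 to 4 and 0.135, 0.0361, -0.209, 0.0517 and 0.0303 in cafeteria replicates 1 to 5. The lean mean was -0.011 ± 0.0611 (SD, n = 4) and the cafeteria mean 0.00882 ± 0.129 (SD, n = 5), so the groups differed by 0.0198, less than the SD of either. Cafeteria replicates 3 and 1, the lowest and the highest of all arrays, belonged to the same group. The RNA quality measure, the difference between 3-prime and 5-prime control probe sets of actin and Gapdh, was 1.8, 1.5, 1.51 and 1.42 in lean and 1.21, 1.53, 1.74, 1.32 and 1.73 in cafeteria samples. It was lowest in cafeteria replicate 1, where the members were highest. It was highest in lean replicate 1, the array with the next lowest member mean after cafeteria replicate 3, and it was also high in cafeteria replicates 3 and 5, with members low in the former and not in the latter. Its part in the array pattern was not tested.

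**Figure D3:**
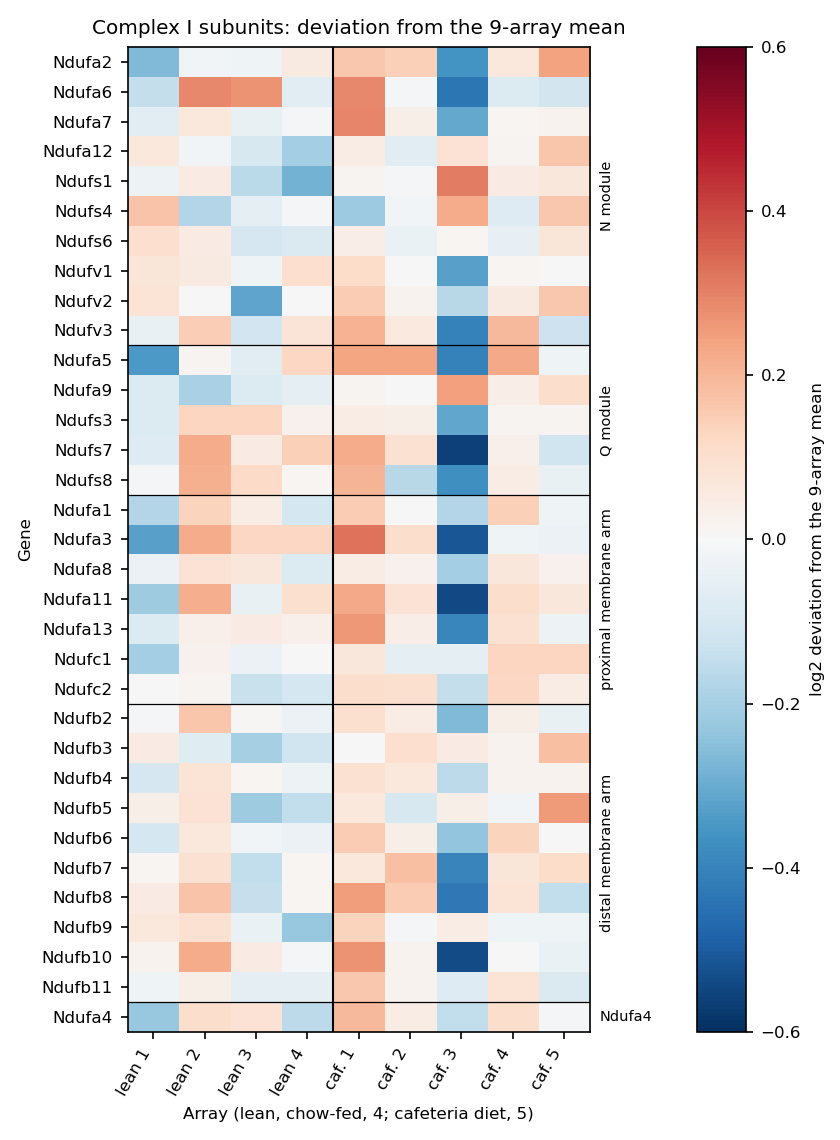
Deviation of each gene (rows, grouped by part of the enzyme) from its own mean over the 9 arrays, in log2 units, for 4 lean and 5 cafeteria arrays (columns). The column of cafeteria replicate 3 is blue in most rows, with Ndufa9, Ndufs1 and Ndufs4 among the red exceptions, and the column of cafeteria replicate 1 is red in most.

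Only 3 members had more than 1 single-gene probe set. The probe sets of Ndufa7 gave differences of 0.0269 (SE 0.105) and 0.0133 (SE 0.164), and both were lowest in cafeteria replicate 3 and highest in cafeteria replicate 1. The 2 probe sets of Ndufv3, a gene with a short and a long isoform, differed by -0.0277 (SE 0.127) and -0.0931 (SE 0.0997), and cafeteria replicate 3 was the lowest array in the brighter one only. In Ndufa9 the probe sets disagreed. The probe set behind the values above had a 9-array mean of 9.08, whereas the second had a mean of 3.94, below the array medians, and a difference of -0.0243 (SE 0.11). Cafeteria replicate 3 was the highest array in the first and the lowest in the second. With the probe sets of each gene averaged, or with the dimmer one taken, 0 members had groups that did not overlap.

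**Figure D4:**
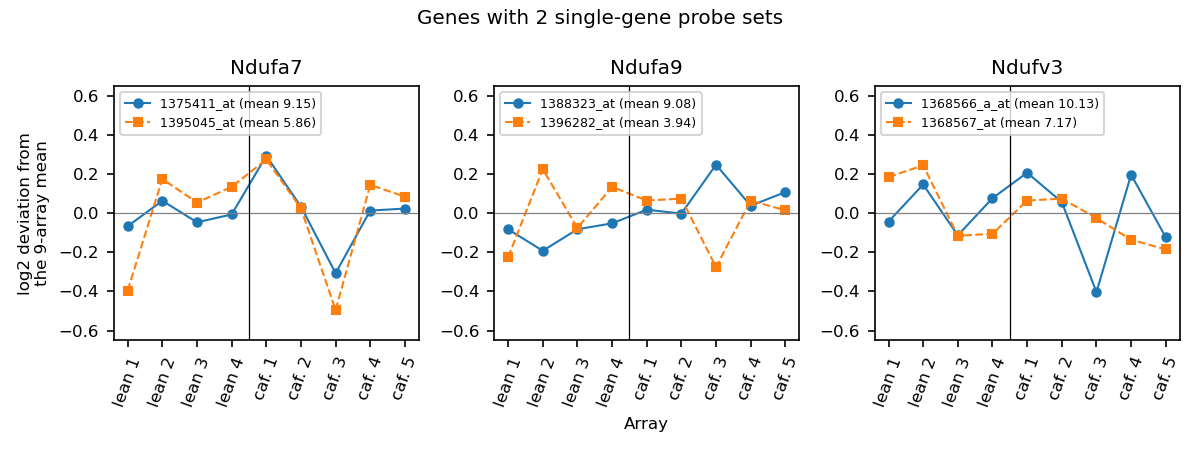
Deviation from the 9-array mean in log2 units (vertical axes) for both probe sets of Ndufa7, Ndufa9 and Ndufv3 in each array (horizontal axes). The pair runs in parallel for Ndufa7 and in opposite directions in cafeteria replicate 3 for Ndufa9, whose second probe set is dim (mean 3.94).

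Other genes of the pathway came from lists chosen with earlier results of these data known. None of their members passed the test (limma, adjusted p of 0.05). Of the subunits and related genes outside the list, Ndufab1, the acyl carrier protein bound to the complex, differed by 0.0113 (SE 0.109), Ndufb1 by -0.0298 (SE 0.137) and Ndufa4l2, the hypoxia-induced relative of Ndufa4, by -0.11 (SE 0.104). Of 18 measured assembly factors, which build the enzyme but do not stay in it, 13 had a higher mean, with a median of 0.0541. The median of these factors without cafeteria replicate 3 was 0.0515. The smallest p among them belonged to Dmac2 (0.18, SE 0.0779), which helps to assemble the distal arm, Acad9 (0.20, SE 0.0907), also a fatty acyl dehydrogenase, and Ndufaf7 (0.11, SE 0.0745), a methyltransferase. The assembly factors were lowest in cafeteria replicate 3 in 4 of 18 genes.

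The other respiratory complexes had small differences as well. Higher means were found in 6 of 6 genes of complex II (median 0.0984), 6 of 9 of complex III (0.164), 11 of 15 of complex IV (0.0638) and 10 of 14 of complex V (0.0446). Unlike the complex I members, these lists were not limited to subunits. They also held assembly factors, namely Sdhaf1, Sdhaf2, Bcs1l, Surf1, Sco1, Cox10, Cox11 and Cox15, and the ATP synthase inhibitor Atp5if1. The smallest p in these lists were those of Sdha (0.16, SE 0.0661), which oxidizes succinate, Cyc1 (0.23, SE 0.0923), the cytochrome c1 gene, Cox5a (0.45, SE 0.162) and Atp5po (0.20, SE 0.0951), a stalk subunit of the ATP synthase. The probe set of Cox5a was dim, with a 9-array mean of 5.56 beside array medians of 5.28 to 5.32. Without cafeteria replicate 3 the medians were 0.0942, 0.123, 0.0599 and 0.0763 for complexes II, III, IV and V, beside 0.0838 for complex I. The order of the complexes by median therefore depended on that array. Whether the median differences of these complexes differ from that of complex I was not tested. The mean deviations of complex V and complex IV were, like that of complex I, lowest in cafeteria replicate 3 (-0.129 and -0.0732). For complex IV, lean replicate 1 was close, at -0.0611. Complex III had its next lowest value in cafeteria replicate 3 (-0.0765, against -0.0803 in lean replicate 3). Complex II went the other way, at 0.0408 in that array and above all lean samples, whose highest value was 0.00861. By single genes, 1 of 6 of complex II, 4 of 9 of complex III, 3 of 15 of complex IV and 6 of 14 of complex V were lowest there. Of all genes 18.8% were lowest in that array.

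Enzymes and carriers that supply NADH behaved otherwise in that array. Of 16 measured genes 12 had a higher mean, with a median of 0.161, or 0.113 without cafeteria replicate 3. At an unadjusted p of 0.05 stood 5 of them (6.7% of all genes did). Idh3a and Mdh2, enzymes of the citrate cycle, measured 7.73 ± 0.0666 and 9.34 ± 0.0774 in lean (SD, n = 4) and 7.95 ± 0.09 and 9.52 ± 0.0561 in cafeteria samples (SD, n = 5). Their differences were 0.22 (SE 0.071) and 0.17 (SE 0.0663), without overlap between the groups (2.17% of all genes), and both were highest in cafeteria replicate 3. Got1, an aminotransferase of the malate-aspartate shuttle, differed by 0.92 (SE 0.401) with a lean SD of 1.03. The mean deviation of the list was 0.223 in cafeteria replicate 3, its highest array, where that of complex I was at its lowest, -0.209. In the remaining cafeteria samples it lay between 0.0155 and 0.0565, and in lean samples between -0.128 and -0.0601.

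**Figure D5:**
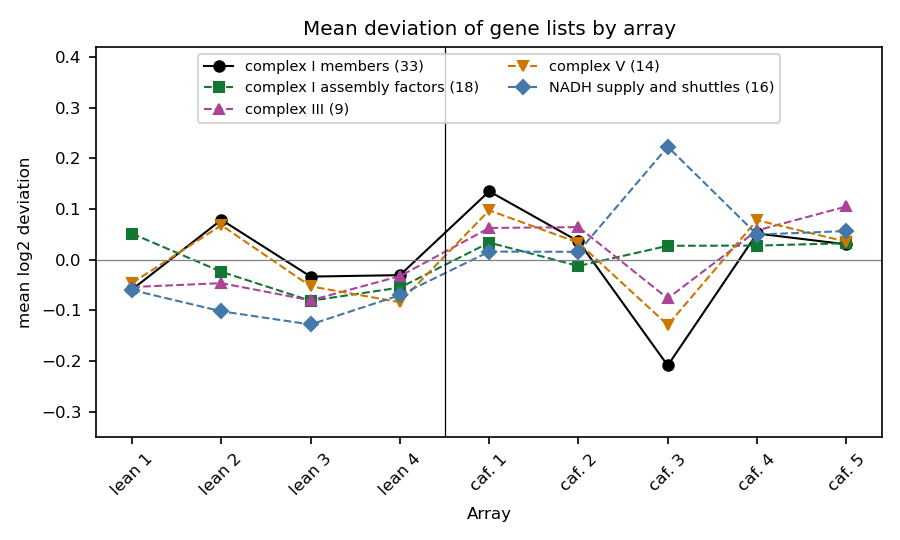
Mean log2 deviation from the 9-array mean (vertical axis) of the 33 complex I genes, 18 assembly factors, 9 genes of complex III, 14 of complex V and 16 of NADH supply in each array (horizontal axis). In cafeteria replicate 3 complex I is at -0.209 and NADH supply at 0.223, while the assembly factors stay near 0.

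Of 13 regulators of respiratory genes, 8 had higher and 5 lower means (50.8% of all genes were higher), and 4 stood at an unadjusted p of 0.05 (6.7% of all genes). Ppargc1a, the coactivator that drives mitochondrial biogenesis, measured 5.01, 5.17, 5.44 and 5.43 in lean and 5.37, 5.53, 5.92, 6.17 and 6.13 in cafeteria samples. Its 9-array mean of 5.58 was close to the array medians. The upper 4 cafeteria samples exceeded all lean samples, and the difference was 0.56 (SE 0.175; unadjusted p = 0.00872 and adjusted p = 0.844 by limma). Nrf1, which binds the word shown for Ndufa11, measured 6.58, 6.45, 6.54 and 6.56 in lean and 6.42, 6.23, 6.35, 6.26 and 6.32 in cafeteria samples. All cafeteria samples were below all lean ones, and the difference was -0.21 (SE 0.0673; adjusted p = 0.844 by limma). Groups without overlap were found in 2 of the 13 regulators, against 2.17% of all genes. The other was Tfb1m (0.20, SE 0.0712), which was higher under the cafeteria diet and lies outside the naming rule. Gabpb1, a subunit of GABP, differed by -0.26 (SE 0.0829). Yy1 (0.0491, SE 0.0912), Gabpa (0.00924, SE 0.114), Esrra (0.0218, SE 0.108) and Creb1 (-0.14, SE 0.322) were added because their words were searched. They also lie outside the naming rule. The median difference of the members was -0.0074 with the NRF1 word, -0.0132 with the YY1 word, 0.0135 with the GABP word, 0.0217 with the CREB word and 0.0123 with the estrogen-related receptor word.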

How the data were processed

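The authors deposited log2 values, 1 per probe set and array; per the submitters' processing notes RMA, R 2.7.0 and affy 2.0.1 were used, with no role given. RMA equalizes the distributions of the arrays, so a shift shared by most genes would be removed. Of 31099 probe sets, 57 controls were left out; 20826 of the 31042 tested were assigned to 1 gene by the platform annotation, and the brightest stood for each gene. All 33 members matched RefSeq by gene identifier. The members and lists were chosen with earlier results of these data known. Differences (cafeteria minus lean) were fitted with limma 3.58.1 (lmFit, eBayes, R 4.3.3; two-sided, no covariates) over all tested probe sets with Benjamini-Hochberg adjustment. The fit was tested on simulated data. Plots and promoter searches used Python 3.11.15 (pandas 2.3.3, numpy 2.4.6, matplotlib 3.10.9). Per-array values were given for the 6 members with the smallest p, the 6 core genes, Ndufa4, and members with discordant probe sets or 1 array standing apart; of other lists, up to 3 genes with the smallest p. Alternatives covered scaling, a filter on dim probe sets, the variance model, array weights, covariates, the probe set rule and each array left out. The number of arrays limits the precision.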

Additional observations from a re-analysis of the deposited data

Results flagged for a closer look

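In each group of 4 or 5 samples the highest and the lowest sample were set against the rest, by the gap to the nearest sample as a share of the group's range, for the 33 genes and their mean (68 groups). In 9 groups the gap exceeded Dixon's 95% critical value; chance gives about 1 in 20 groups. In 7 of them cafeteria replicate 3 was low: Ndufs3 (a share of 0.931, with 8.58 against 8.91 for the nearest sample), Ndufa8 (0.829, 9.13 against 9.36), Ndufb7 (0.801, 9.01 against 9.47), Ndufa11 (0.794, 8.54 against 9.15), Ndufv1 (0.748, 8.82 against 9.15), Ndufc2 (0.726, 9.15 against 9.34) and Ndufb4 (0.717, 10.51 against 10.69). In Ndufs1 the same array was high (0.75, 9.62 against 9.38). The last was Ndufa13, where lean replicate 1 was low (0.846, 9.66 against 9.77). The genes share these arrays, so the flags are not independent of each other.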

How the results depend on the processing

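Under every alternative run, 0 of the 33 members reached an adjusted p of 0.05 by limma; the smallest adjusted p of a member was 0.38, with RNA quality as a covariate, and 0 to 3 members stood at an unadjusted p of 0.05. The median difference stayed above 0, from 0.00806 without cafeteria replicate 1 to 0.0838 without cafeteria replicate 3. The members with a higher mean numbered 17 to 26. Groups that did not overlap were found in 1 to 3 members with single samples left out, 0 with the mean over all probe sets of a gene, 0 with the probe set with the lowest mean, and 5 with lean replicate 1 and cafeteria replicate 3 left out together, an alternative chosen after seeing the data. Smaller groups separate more easily, and the share of all genes was not computed with samples left out. These counts therefore cannot be set against the 2.17% found with all samples. In 15 of the 33 members the sign of the difference changed in at least 1 of 19 alternatives. The intervals of all members stayed within -0.572 and 0.539, the former without lean replicate 1. The count of members lowest in cafeteria replicate 3 was 19 or 20 under the other scalings and probe set rules. No paired analysis was possible because the labels give no replicate numbers. RMA values carry no detection call, so how far signal lies over background is not known for single arrays.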
